A study of Mus musculus with 12 samples.

Results

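The guanylate-binding proteins (GBPs) and the immunity-related GTPases (IRGs) were described in 2 lymphoma cell lines as 10 genes, namely Gbp2, Gbp3, Gbp4, Gbp5, Gbp7, Gbp9, Irgm1, Irgm2, Igtp and Iigp1. A probe set was taken for a gene where the platform annotation gave that gene as its symbol. Where a gene had several, the probe set was to be chosen by the measured level, as the one brightest on average over the 12 arrays. Each of 9 members had exactly 1 probe set of its own, so the level chose nothing among them. Gbp5 was represented only by a probe set that it shares with Gbp2b. These 9 were among 30098 genes tested.

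RNA was measured on Affymetrix MTA 1.0 arrays in 4 groups of 3 cultures, 1 array for each culture. The cells came from established Eμ-Myc lymphoma lines of C57BL6/CBA mice, labelled as spleen, and the study used them to follow gene expression when Runx1 is excised. All groups shared the interferon-inducible Mx1Cre transgene, the EµMyc transgene and p53+/- as the genotype of the mice of origin. The study describes 3s as p53 null and reports that most of its established lines had lost the wild-type allele. The groups were IFNβ-treated 3s cells (Mx1Cre+, Runx1 fl/fl), vehicle-treated 3s cells, IFNβ-treated 30s cells (Mx1Cre+, Runx1 wt/wt) and vehicle-treated 30s cells. IFNβ was given at 50 U/ml, or PBS with BSA as vehicle, for 72 h, after which the cells were replated in fresh medium. Harvest followed 6 days later, so the values describe cells that had been without added IFNβ for that time. Each genotype is 1 line, so a difference between genotypes and a difference between lines cannot be told apart. The genotype field of the labels followed the treatment in both lines and went against the titles, so the groups were taken from the titles.

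The arrays of all groups correlated with each other at 0.988 to 0.996 over all probe sets, and no array was a copy of another. Runx1 itself read 7.88 ± 0.18 in IFNβ-treated and 7.90 ± 0.11 in vehicle-treated 3s cells, against 8.32 ± 0.11 in IFNβ-treated and 8.24 ± 0.12 in vehicle-treated 30s cells (log2, SD, n = 3 each). The position of its probes relative to the excised part was not known here, and this reading is no measure of excision. The study itself checked excision in its IFNβ-treated Runx1 fl/fl lines by PCR. It reports no effect of IFNβ on Runx1 expression in 30s cells. The mean of 10 B cell markers lay between 11.02 and 11.35 on every array, whereas the means of 10 myeloid and of 10 T and NK markers lay between 4.61 and 4.94. The near-equal B cell mean covers opposite differences between the lines, where 6 of the 10 markers were higher and 3 lower in 3s cells with vehicle. Of these, Igll1, a surrogate light chain of early B cells, was lower by 4.66 and Ms4a1 (CD20) was higher by 2.24. For comparison, 23 background control probe sets averaged 2.62 to 5.76 each, with a median of 3.45. A probe set that reads within this range is not distinct from background, and differences involving it are limited by background. The values are from cultures as a whole, so that fewer cells expressing a gene and less RNA of it in each cell cannot be told apart.

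GBPs are large GTPases of the dynamin superfamily that are strongly induced by interferon-γ and, to a lesser degree, by type I interferon. They assemble on vacuoles and bacteria in the cytosol, where they break membranes and expose ligands for inflammatory caspases, and some are anchored in membranes by a prenyl group. IRGs are smaller GTPases of the same defence. Irgm1, Irgm2 and Igtp (Irgm3) are regulators that sit on the cell's own membranes and hold effector GTPases such as Iigp1 (Irga6) inactive there. Transcription of both families is driven by factors such as IRF1, which acts on interferon-stimulated response elements (ISREs) and related sites near the start of the gene.

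The genes fall into compact clusters. In the RefSeq annotation of GRCm38.p6, Gbp5, Gbp7, Gbp3, Gbp2b and Gbp2 follow each other on chromosome 3, Gbp9 and Gbp4 are neighbours on chromosome 5 together with Gbp8, Gbp10, Gbp6 and Gbp11, and Igtp and Irgm2 are neighbours on chromosome 11. Irgm1 lies elsewhere on chromosome 11. Promoter windows from RefSeq were available for 7 members. The 250 bases before the start were searched on both strands for the ISRE core, which is GAAA repeated after any 2 bases, for the STAT site GAS, spelled TTCNNNGAA, and for the Runx motif, spelled TGTGGT.

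The ISRE core was present in at least 1 window of 7 of 7 members, which had 8 windows together. Counted by window, it stood in 2.98% of 32851 mouse promoter windows of the same length. GAS letters stood in 4 of 7 (Gbp5, Gbp7, Irgm2 and Igtp), against 7.02% of all windows, and the Runx letters in 1 of 7 (Gbp2), against 14.05%. The stretches around the ISRE core are shown for the 6 members with both a window and their own probe set, since these windows share it while the members' values differed between groups in different directions. Gbp4, Gbp9 and Iigp1 were not examined for motifs. Capitals mark the ISRE core on either strand and, in Irgm2 and Igtp, also the GAS letters before it:
Gbp3 (chr3:142559977-142560036, plus strand): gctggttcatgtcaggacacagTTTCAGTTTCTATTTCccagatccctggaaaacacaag
Gbp7 (chr3:142530261-142530314, plus strand): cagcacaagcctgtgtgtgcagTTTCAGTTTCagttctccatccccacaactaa
Gbp2 (chr3:142620582-142620635, plus strand): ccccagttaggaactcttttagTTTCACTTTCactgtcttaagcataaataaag
Irgm1 (chr11:48871421-48871472, minus strand): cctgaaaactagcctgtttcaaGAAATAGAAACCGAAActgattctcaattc
Irgm2 (chr11:58214891-58214944, plus strand): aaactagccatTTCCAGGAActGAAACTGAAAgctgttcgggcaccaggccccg
Igtp (chr11:58199500-58199553, plus strand): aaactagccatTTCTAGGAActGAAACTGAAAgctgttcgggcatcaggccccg

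All coordinates are GRCm38.p6. Gbp3 and Irgm1 each held 2 overlapping copies of the ISRE core, beginning 45 and 39 bases before the start in Gbp3 and 30 and 24 bases before it in Irgm1. A further window of Gbp3, for a second start, held none of the 3 motifs. The Irgm2 and Igtp windows also shared an identical run of 55 bases, which began 215 bases before the start of Irgm2 and 181 bases before that of Igtp. A match of letters is a description of the window and measures no binding. Because the coding regions of neighbouring GBPs and IRGs are also alike and probe sequences were not used here, hybridisation of one member's RNA to the probes of another was not tested.

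The first question was how the family stood after IFNβ in cells whose Runx1 can be excised. In 3s cells 1 of 9 members was lower after IFNβ (Gbp3), 1 was higher (Gbp9) and 7 did not pass the test at an adjusted p under 0.05. Of all genes tested, 1.02% passed, 0.439% as lower and 0.581% as higher. The median change of the 9 members was -0.18 on the log2 scale, against -0.00 over all genes. The GBPs of chromosome 3 had changes of -0.46 to -0.18, those of chromosome 5 changes of 0.29 and 0.36, and the 3 IRGM genes changes of -0.28 to -0.14. The groups of 3 arrays did not overlap for 6 of 9 members (Gbp3, Gbp7, Gbp2 and Irgm2 below vehicle, Gbp4 and Gbp9 above it), against 13.4% of all genes. The members were chosen with earlier results of these data known, so nothing is read from this share.

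**Figure D1:**
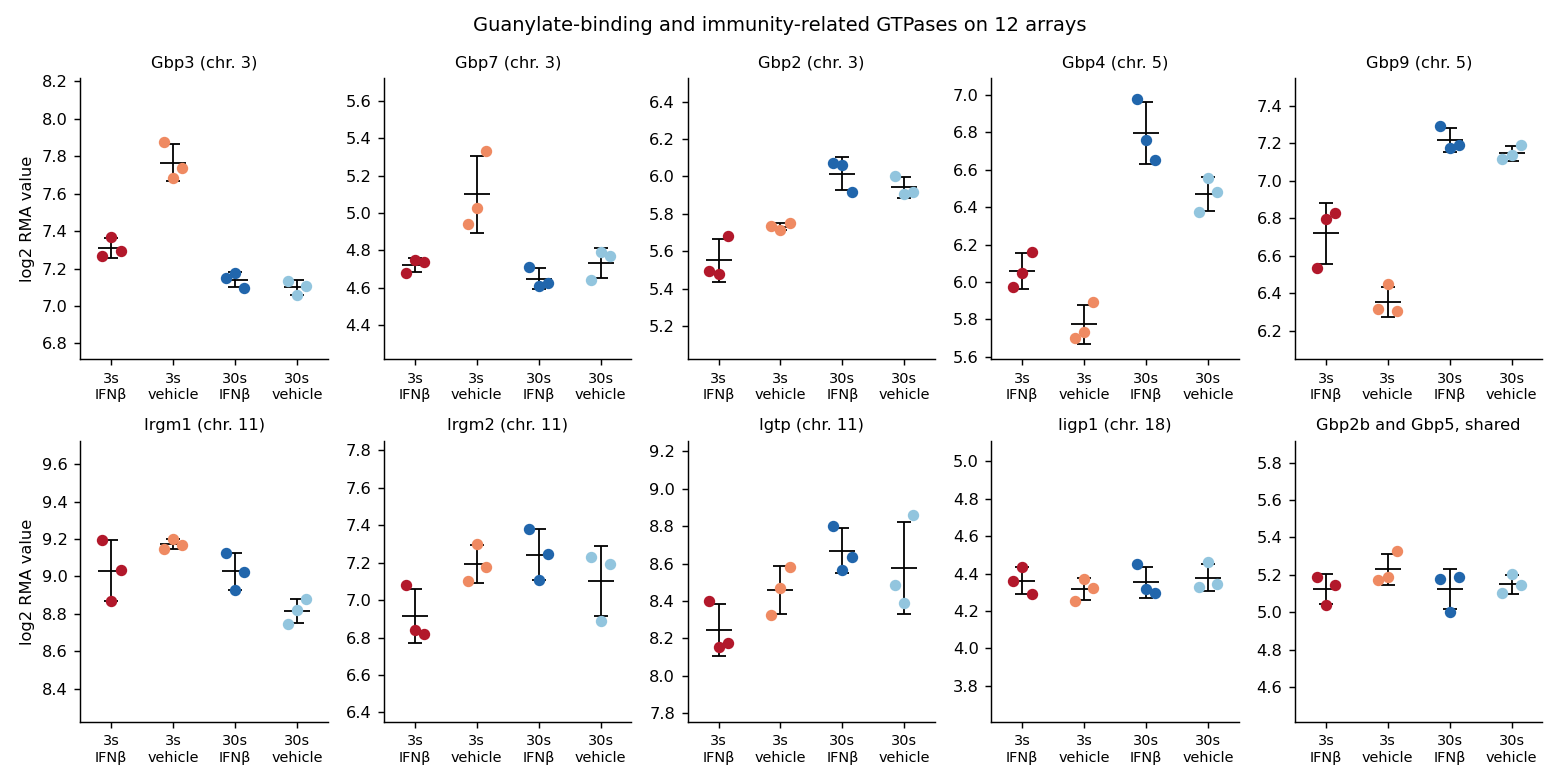
Log2 RMA value (vertical axis, the same span in each panel) of each member on the 12 arrays, with 1 point for each culture and the bar and whiskers giving the group mean ± SD (n = 3). Gbp3 stood highest in vehicle-treated 3s cells, at 7.69 to 7.87, while Gbp4 and Gbp9 stood lower in both groups of 3s cells than in either group of 30s cells.

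Gbp3, a member of the chromosome 3 cluster that mice need for full resistance to Toxoplasma, read 7.26, 7.37 and 7.30 in IFNβ-treated 3s cells, against 7.87, 7.69 and 7.74 in vehicle-treated 3s cells. In 30s cells it read 7.15, 7.18 and 7.10 after IFNβ, against 7.14, 7.06 and 7.11 with vehicle. The vehicle-treated 3s cells stood well above the other 3 groups, and the IFNβ-treated 3s cells lay just above all arrays of 30s cells. Gbp3 fell by 0.46 ± 0.05 (SE) on the log2 scale after IFNβ in 3s cells, a 1.37-fold lower level, with an adjusted p of 0.00149 in limma, at rank 73 of 30098 genes by p. The change was -0.50 to -0.40 with any 1 array left out, and passed the test each time. In 30s cells the change was 0.04 with a 95% interval of -0.08 to 0.16 and an adjusted p of 0.836.

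The difference between these effects was itself tested for Gbp3 and was -0.50 ± 0.08 (SE) on the log2 scale with an adjusted p of 0.0109. Among the 9 members it was the only one past the test of the difference, against 1.02% of all genes, 0.425% as lower. The mean of the 10 B cell markers lay at 11.02 to 11.10 in IFNβ-treated and 11.19 to 11.26 in vehicle-treated 3s cells. In 30s cells it lay at 11.27 to 11.34 after IFNβ and at 11.25 to 11.35 with vehicle. The mean of the 10 myeloid markers was 4.61 to 4.73 in IFNβ-treated and 4.73 to 4.80 in vehicle-treated 3s cells. Among the B cell markers the largest changes in 3s cells were those of Igll1 (-0.61, within the background range) and Ms4a1 (-0.39). The other B cell markers changed by -0.17 to 0.05. Among the myeloid markers Ly6c2 changed by -0.74 and the others by -0.14 to 0.10. No B cell or myeloid marker passed the test in 3s cells, and their part in the change of Gbp3 was not tested.

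Gbp7, which in mice binds and helps to assemble the phagocyte oxidase, was read within the range of the background controls on all 12 arrays. Its values were 4.68, 4.75 and 4.74 in IFNβ-treated 3s cells, against 4.94, 5.02 and 5.33 in vehicle-treated 3s cells. In 30s cells Gbp7 read 4.71, 4.61 and 4.63 after IFNβ, against 4.64, 4.79 and 4.77 with vehicle. The 3 vehicle-treated 3s cultures were thus its highest 3 of 12, the array at 5.33 most of all. The change in 3s cells was -0.38 ± 0.09 (SE), with an adjusted p of 0.0790. Leaving out replicate 1 of vehicle-treated 3s cells brought it to -0.46 with an adjusted p of 0.0446, the only array whose removal made it pass. Neither its change in 30s cells, -0.08, nor the difference between lines, -0.29 with an adjusted p of 0.384, passed.

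Gbp2, a prenylated GBP that is recruited to parasite vacuoles, read 5.49, 5.48 and 5.68 in IFNβ-treated 3s cells, against 5.73, 5.71 and 5.75 in vehicle-treated 3s cells. Here 30s cells were higher, with 6.07, 6.06 and 5.91 after IFNβ, against 6.00, 5.90 and 5.92 with vehicle. All 6 arrays of 3s cells read within the range of the background controls. The change of -0.18 in 3s cells (adjusted p = 0.383) and that of 0.07 in 30s cells (adjusted p = 0.701) did not pass. Gbp5, which promotes inflammasome assembly in macrophages, and Gbp2b were read by 1 shared probe set at 5.00 to 5.33 on the 12 arrays, with changes of -0.10 in 3s and -0.03 in 30s cells (limma, adjusted p = 0.924 and 0.952 over all 72688 probe sets).

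The neighbours Gbp9 and Gbp4 of chromosome 5 differed from the chromosome 3 genes in the sign of their change in 3s cells. Gbp9 read 6.53, 6.79 and 6.83 in IFNβ-treated 3s cells, against 6.31, 6.45 and 6.30 in vehicle-treated 3s cells. In 30s cells it read 7.29, 7.17 and 7.19 after IFNβ, against 7.11, 7.14 and 7.19 with vehicle. All 6 arrays of 3s cells lay below all 6 arrays of 30s cells, and within 3s cells the IFNβ-treated cultures were the higher ones. Its rise of 0.36 ± 0.07 (SE) in 3s cells only just passed, with an adjusted p of 0.0487. The call was lost when any array other than replicate 1 of IFNβ-treated 3s cells was left out, with adjusted p between 0.0640 and 0.191. In 30s cells the change of Gbp9 was 0.07 with a 95% interval of -0.09 to 0.24, and the difference between the lines, 0.29, did not pass (adjusted p = 0.308).

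Gbp4 had changes of close size in both lines. It read 5.97, 6.05 and 6.16 in IFNβ-treated 3s cells, against 5.70, 5.73 and 5.89 in vehicle-treated 3s cells. In IFNβ-treated 30s cells it read 6.98, 6.76 and 6.65, against 6.37, 6.55 and 6.48 in vehicle-treated 30s cells. In neither line did the groups overlap, and 2 of the vehicle-treated 3s arrays read within the range of the background controls. The changes were 0.29 ± 0.09 (SE) in 3s cells with an adjusted p of 0.267 and 0.33 ± 0.09 (SE) in 30s cells with an adjusted p of 0.106, so that neither passed over all genes. The difference between them was -0.04 with a 95% interval of -0.31 to 0.23. A probe set shared by the nearby genes Gbp6 and Gbp10 had changes of 0.11 in 3s and 0.21 in 30s cells, which did not pass (adjusted p = 0.919 and 0.342).

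**Figure D2:**
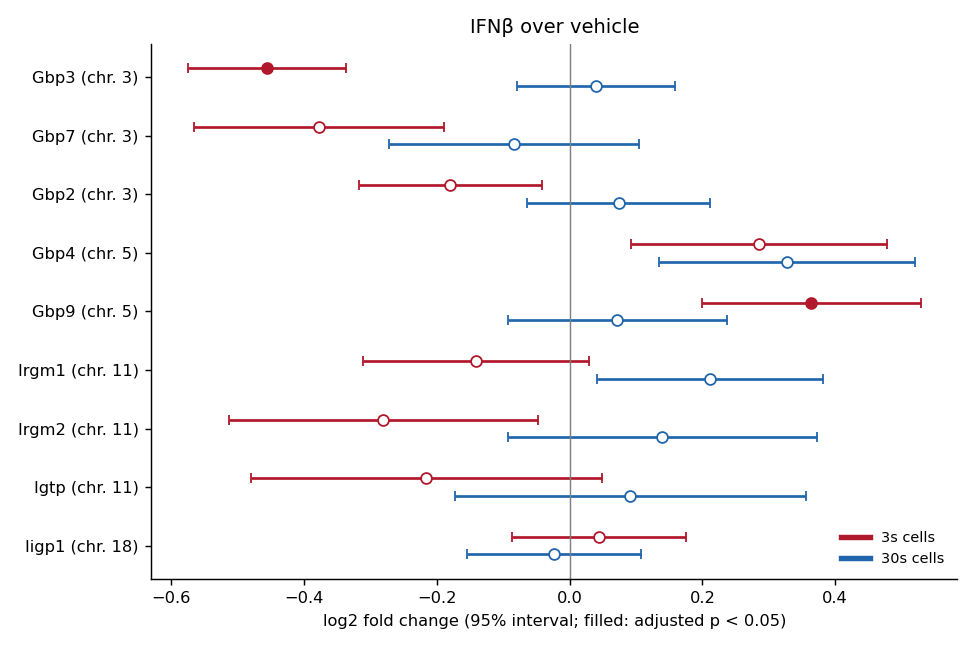
Log2 fold change of IFNβ-treated over vehicle-treated cells (horizontal axis, point with 95% interval from the fit) for the 9 members with their own probe set, in 3s cells (red) and 30s cells (blue), with filled points for an adjusted p under 0.05. Only Gbp3, at -0.46, and Gbp9, at 0.36, are filled, both in 3s cells.

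The 3 regulatory IRGs were among the brighter members. Irgm1, which protects cells from damage by their own effector GTPases, read 9.19, 8.87 and 9.03 in IFNβ-treated 3s cells, against 9.15, 9.20 and 9.17 in vehicle-treated 3s cells. In 30s cells Irgm1 read 9.13, 8.93 and 9.03 after IFNβ, against 8.75, 8.82 and 8.88 with vehicle. The 30s groups did not overlap while the 3s groups did, yet neither the change of 0.21 in 30s cells (adjusted p = 0.244) nor that of -0.14 in 3s cells (adjusted p = 0.740) passed. The difference of -0.35 ± 0.11 (SE) between the lines had an unadjusted p of 0.00794 and an adjusted p of 0.212.

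Irgm2 read 7.08, 6.84 and 6.82 in IFNβ-treated 3s cells, against 7.10, 7.30 and 7.18 in vehicle-treated 3s cells, and 7.38, 7.11 and 7.25 in IFNβ-treated 30s cells, against 7.23, 6.89 and 7.19 in vehicle-treated 30s cells. Its neighbour Igtp read 8.40, 8.15 and 8.18 in IFNβ-treated 3s cells, against 8.32, 8.47 and 8.58 in vehicle-treated 3s cells, and 8.80, 8.57 and 8.64 in IFNβ-treated 30s cells, against 8.48, 8.39 and 8.86 in vehicle-treated 30s cells. Both genes were lowest in IFNβ-treated 3s cells, with 1 array there, replicate 1, above the other 2. Their changes in 3s cells were -0.28 and -0.22 and those in 30s cells 0.14 and 0.09, none past the test. The differences between lines were -0.42 for Irgm2 (adjusted p = 0.300) and -0.31 for Igtp (adjusted p = 0.568).

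Iigp1, an effector IRG encoded on chromosome 18 that is among the genes most strongly induced by interferon in many mouse cells, stayed between 4.26 and 4.46 on all 12 arrays, within the range of the background controls. No change was detectable at this level, with 0.04 in 3s cells (95% interval -0.09 to 0.18) and -0.02 in 30s cells (95% interval -0.15 to 0.11).

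In 30s cells, whose Runx1 cannot be excised, 0 of 9 members passed the adjusted test in limma, against 1.15% of all genes, and 2 (Gbp4 and Irgm1) had an unadjusted p under 0.05, against 13.5% of all genes. The groups did not overlap for the same 2 of 9, against 18.7% of all genes. The median change was 0.07 over the members and 0.01 over all genes. For the difference between the lines, 6 of 9 members had an unadjusted p under 0.05, against 11.2% of all genes, and the median difference of the members was -0.29, against -0.01 over all genes. Because the members were chosen with earlier results known, nothing is read from that share or median. The effects in 3s and 30s cells are from separate cultures and share no arrays. Their difference was below 0 for 7 members and above 0 for Gbp9 and Iigp1.

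The levels of the members also differed between the 2 lines. These comparisons use the same arrays as the IFNβ comparisons, so their values are not independent of those above. With vehicle, 6 of 9 members passed the test between the lines, of which Gbp3, Gbp7 and Irgm1 were higher and Gbp2, Gbp4 and Gbp9 lower in 3s cells. Since 24.9% of all genes, and 48.0% of those with a mean of at least 6, passed between these lines, a difference there was common. By direction, 14.3% of all genes were higher and 10.6% lower in 3s cells. Groups did not overlap for 6 of 9 members, against 38.2% of all genes. The largest differences were those of Gbp9, -0.79 ± 0.07 (SE) with an adjusted p of 1.09e-05, of Gbp4, -0.70 ± 0.09 with an adjusted p of 1.00e-04, and of Gbp3, 0.67 ± 0.05 with an adjusted p of 3.20e-06.

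The members of the chromosome 3 cluster did not all stand on the same side. Gbp3 and Gbp7 were higher in vehicle-treated 3s than in vehicle-treated 30s cells, by 0.67 and 0.37 (adjusted p = 0.00770 for Gbp7), while Gbp2 was lower by 0.21 (adjusted p = 0.0293). Chromosome 3 as a whole was read lower in 3s cells, since its 626 genes with a mean of at least 6 had a median difference of -0.29 and 69.2% of them passed. The median was -0.05 for chromosome 5 and -0.01 for chromosome 11. The difference of Gbp2 was near this median of chromosome 3, and those of Gbp3 and Gbp7 had the opposite sign. Gbp2 and Gbp7, with means of 5.81 and 4.80 over the 12 arrays, are dimmer than the genes that gave the median. Gbp7 read within the range of the background controls on all 12 arrays, and lost its call with the methods' t-test after adjustment (adjusted p = 0.155). The call of Gbp2 was lost without replicate 1, 2 or 3 of vehicle-treated 3s cells, or without replicate 1 or 3 of vehicle-treated 30s cells, with adjusted p between 0.0532 and 0.100. It was also lost with the replicate number as a block, with arrays centred on their medians, with quantile normalisation and over every probe set (adjusted p 0.0517 to 0.0786).

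After IFNβ, 1 member was higher (Gbp3) and 5 were lower (Gbp2, Gbp4, Gbp9, Irgm2 and Igtp) in 3s than in 30s cells, against 26.9% of all genes called, 13.9% as higher and 13.0% as lower, and a median over all genes of -0.02. Groups again did not overlap for 6 of 9 members, against 39.0% of all genes. Gbp4 was lower by 0.74 ± 0.09 (SE) with an adjusted p of 5.01e-05, Gbp9 by 0.50 ± 0.07 with an adjusted p of 2.99e-04, and Gbp2, at background level in 3s cells, by 0.46 ± 0.06 with an adjusted p of 1.39e-04. These 3 genes differed between the lines under both treatments.

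The other calls after IFNβ were less firm. The distance of Gbp3 between the lines was 0.17 after IFNβ (adjusted p = 0.0370), and lost its call without replicate 2 or 3 of IFNβ-treated 3s cells or any of the 3 IFNβ-treated 30s cultures (adjusted p 0.0531 to 0.131). The call of Gbp3 was also lost with the replicate number as a block and with an intensity trend and robust moderation. The methods' t-test after adjustment, quantile normalisation and testing every probe set lost it too (adjusted p 0.0549 to 0.0812 over these settings). Igtp, at -0.42 (adjusted p = 0.0202), lost it without replicate 2 or 3 of IFNβ-treated 3s cells or replicate 1 of IFNβ-treated 30s cells (adjusted p 0.0708 to 0.0829). Irgm2, at -0.33 (adjusted p = 0.0382), lost it without those same arrays, without replicate 3 of IFNβ-treated 30s cells, or without replicate 3 of vehicle-treated 3s cells, which enters only through the shared estimate of spread (adjusted p 0.0516 to 0.145). Irgm1 and Gbp7 read 9.03 ± 0.16 and 4.72 ± 0.04 in IFNβ-treated 3s cells, against 9.03 ± 0.10 and 4.65 ± 0.06 in IFNβ-treated 30s cells (SD, n = 3 each).

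**Figure D3:**
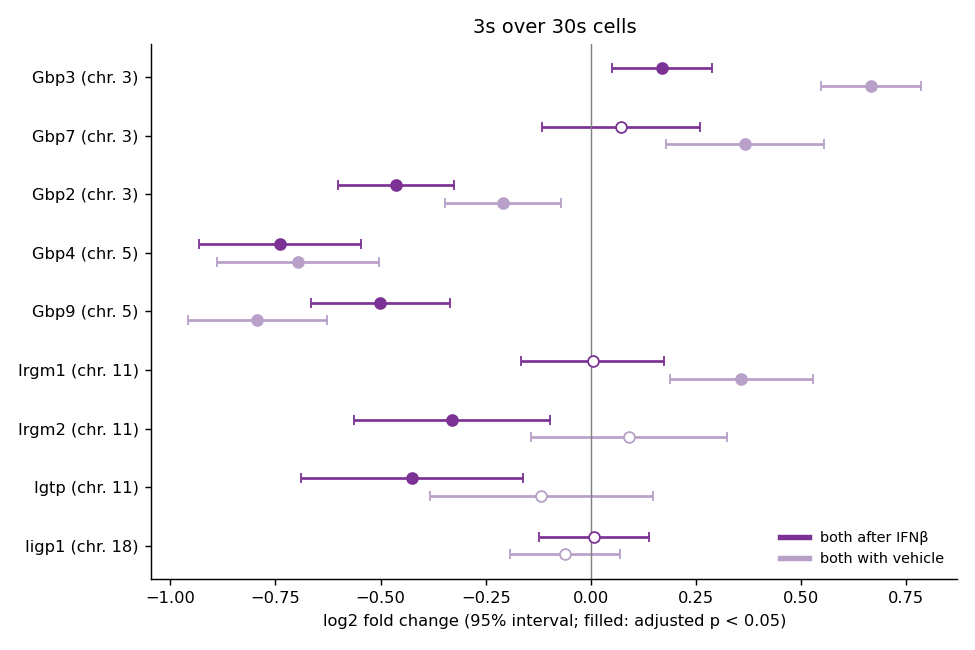
Log2 fold change of 3s over 30s cells (horizontal axis, point with 95% interval from the fit) for the 9 members, both after IFNβ (dark) and both with vehicle (pale), with filled points for an adjusted p under 0.05. Gbp4 lies near -0.7 under both treatments, whereas Gbp3 lies at 0.67 with vehicle and 0.17 after IFNβ.

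Ordered by level, Gbp3 was lowest in the 2 groups of 30s cells, whose order was within their spread, higher in IFNβ-treated 3s cells and highest in vehicle-treated 3s cells. Gbp9 had the opposite order, lowest in vehicle-treated 3s cells, then IFNβ-treated 3s cells, with the 2 groups of 30s cells highest and within each other's spread. Gbp4 had the order IFNβ-treated 30s, vehicle-treated 30s, IFNβ-treated 3s and vehicle-treated 3s cells, in which the neighbours within a line did not pass the test. For Gbp2 both groups of 30s cells stood above both groups of 3s cells.

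Across the 12 arrays the members did not vary as one set. Over the 36 pairs of members Pearson's r had a median of 0.06 and ran from -0.91 (Gbp3 with Gbp9) to 0.94 (Gbp4 with Gbp9). The neighbours Irgm2 and Igtp had an r of 0.79, and hybridisation of the RNA of one to the probes of the other was not tested. With each group's mean removed, the median was 0.05 and the range -0.52 (Gbp3 with Irgm1) to 0.72 (Gbp4 with Gbp7). Irgm2 and Igtp then stood at 0.70, Irgm1 and Igtp at 0.66, and Irgm1 and Irgm2 at 0.57. These values describe 12 arrays in 4 groups, which share lines and treatments.

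**Figure D4:**
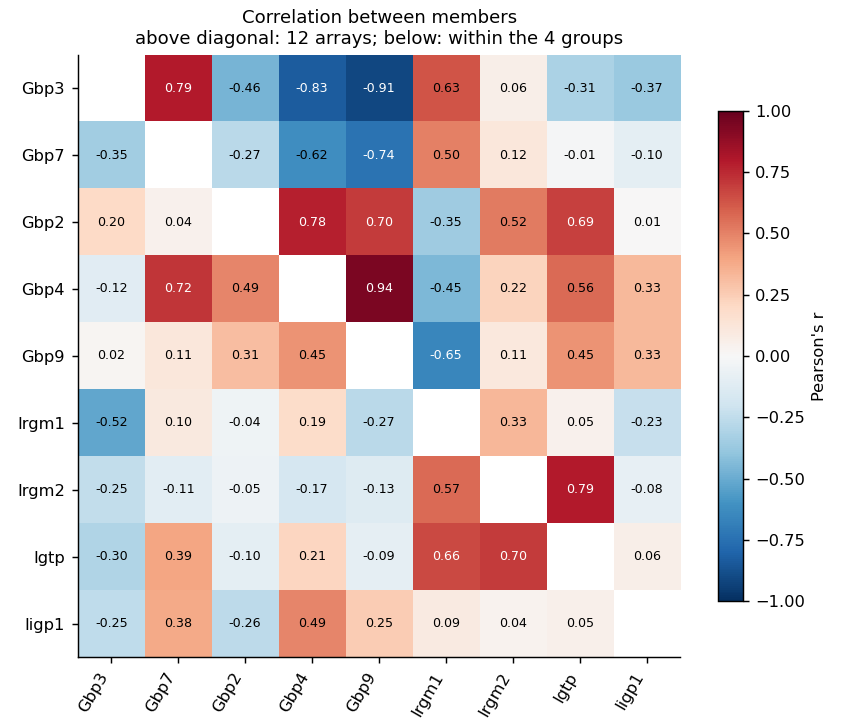
Pearson's r between each pair of the 9 members (colour scale from -1 to 1), above the diagonal over the 12 arrays and below it within the 4 groups after removing each group's mean. Gbp4 and Gbp9 reach 0.94 over the arrays and 0.45 within groups, while Irgm2 and Igtp keep 0.79 and 0.70.

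Among 9081 other named genes with a mean of at least 6, those whose level followed Gbp3 most closely over the 12 arrays were Il17ra (r = 0.96), Pgp (0.96), Naip5 (0.96), Cast (0.96) and Gpr137b (0.95). The mean z-score of the 9 members was followed most closely by Slc25a35 (r = 0.89), Elob (0.89), Atox1 (0.89), Hps4 (0.88) and Lgalsl (0.88). This mean z-score was lowest in IFNβ-treated 3s cells, at -0.37, -0.58 and -0.59, against -0.22, 0.21 and 0.30 in vehicle-treated 3s cells. In 30s cells it was 0.91, 0.11 and 0.14 after IFNβ, against -0.11, -0.04 and 0.24 with vehicle. Replicate 1 of IFNβ-treated 30s cells, at 0.91, was the highest of the 12 arrays.

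Of the relatives of the members, 2 further GBPs and 6 further IRGs had their own probe set. 9930111J21Rik2, an IRG known by its clone name, fell by 0.49 ± 0.07 (SE) in 3s cells (adjusted p = 0.00694), with 11.59 ± 0.02 after IFNβ, against 12.07 ± 0.05 with vehicle. In 30s cells it read 10.92 ± 0.09 after IFNβ and 11.11 ± 0.15 with vehicle, and the difference between the lines, -0.30, did not pass (adjusted p = 0.277). No other relative passed in either line, and neither did Gvin1, a very large interferon-inducible GTPase, or the antiviral dynamins Mx1 and Mx2.

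Between the lines, relatives stood on both sides as the members did. With vehicle, 9930111J21Rik2 was higher by 0.96 and Gvin1 by 0.80 in 3s cells, while Gm12250 (Irgb10), which damages bacterial membranes, was lower by 0.49, Gbp8 by 0.24 and Gbp11 by 0.20. Gm12250, Gbp8 and Gbp11 read within the range of the background controls in both vehicle groups. The probe set shared by Gbp6 and Gbp10 was lower by 0.33 (adjusted p = 0.00810), in the same direction as their neighbours Gbp4 and Gbp9. The one shared by Ifi47 and Olfr56 was higher by 0.49 (adjusted p = 3.57e-04). By group means, the probe set of Gbp6 and Gbp10 read within the range of the background controls in both vehicle groups, at 5.42 in 3s and 5.75 in 30s cells. That of Ifi47 and Olfr56 did so only in the lower group, vehicle-treated 30s cells, at 5.49.

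Upstream of the members, Irf1, an activator of GBP genes, rose by 0.20 (adjusted p = 0.0455) and Irf8 fell by 0.25 (adjusted p = 0.0485) in 3s cells, out of 6 STAT and IRF genes measured. Both adjusted p lay close to the threshold of 0.05, and the stability of these calls is not given here. The difference between lines passed for Irf8 (-0.38, adjusted p = 0.0332) and not for Irf1 (0.17, adjusted p = 0.247). Ifnar2, a chain of the type I interferon receptor, rose by 0.32 in 30s cells (adjusted p = 0.0182), the only one of 7 receptor and kinase genes to pass in either line. Of 29 other type I interferon-stimulated genes, 0 passed in 3s cells in limma (6 had an unadjusted p under 0.05), and 3 were higher (Xaf1, Ifih1 and Tap1) and 1 lower (Samd9l) in 30s cells.

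Of 35 genes measured among negative regulators of interferon signalling, interferons, ATG8 conjugation, inflammasome components and prenylation enzymes, 0 passed for IFNβ in 3s cells in limma (2 with an unadjusted p under 0.05) and 1 in 30s cells, the phosphatase Ptpn6 (-0.37, adjusted p = 0.0120). Among 38 markers of B, myeloid, T and NK, stromal and erythroid cells 0 passed in 3s cells (6 with an unadjusted p under 0.05), and in 30s cells the B lineage genes Igll1 (0.92) and Ms4a1 (-0.97) passed. Of all genes, 8.05% had an unadjusted p under 0.05 in 3s cells, and nothing is read from the counts of these lists either.

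Between the lines with vehicle, the receptors of interferon-γ, the main inducer of the family, were on opposite sides. Ifngr1 was higher by 0.53 and Ifngr2 lower by 0.83 in 3s cells, and the kinases Jak1 and Jak2 were higher by 0.39 and 0.43. Of the 6 STAT and IRF genes, Irf8 was higher by 0.50 and Irf2 by 0.17, Irf1 was lower by 0.13, and 3 did not pass. Of the 29 other interferon-stimulated genes, 11 were higher and 2 lower in 3s cells with vehicle, the calls with the smallest adjusted p being Ifit2 (1.84), Tap1 (0.54), Samd9l (1.38) and Trim30a (0.73), all higher in 3s cells. Over all genes, 14.3% were higher and 10.6% lower in this comparison. Of 7 negative regulators 3 were higher and 2 lower, among them Pias1 (0.29), Ptpn1 (0.45), Socs1 (-0.30) and Ptpn2 (-0.15), and of 5 interferons Ifnk was higher (0.83) and Ifna4 lower (-0.52). Beyond Igll1 and Ms4a1, the B cell genes Cd79b (0.65) and Pax5 (0.74) were among those higher, and Ly6c2 (-0.88), Itgam (-0.25) and Klrb1c (-0.28) were the markers of other cells past the test, all lower in 3s cells. Socs1, Itgam and Klrb1c read within the range of the background controls in both vehicle groups.

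Partners through which GBPs act also differed between the lines. Casp1 and Casp4, the inflammatory caspases downstream of GBPs, were lower in 3s cells by 5.81 (adjusted p = 6.97e-10) and 3.15 (adjusted p = 6.02e-09) with vehicle. In 3s cells Casp1 read 5.03 ± 0.14 after IFNβ and 5.21 ± 0.43 with vehicle, against 11.43 ± 0.08 after IFNβ and 11.01 ± 0.07 with vehicle in 30s cells (SD, n = 3 each). Both caspases read within the range of the background controls in 3s cells, so the sizes of these differences are limited by background there. Gsdmd, the pore-forming substrate of these caspases, was higher in 3s cells by 0.95 and Aim2, a sensor of DNA, by 0.42 with vehicle. Neither caspase passed for IFNβ in either line. Of 10 genes of the ATG8 conjugation machinery, which guides IRGs and GBPs to vacuoles, 3 were higher and 2 lower in 3s cells with vehicle, among them Gabarapl1 (-1.36), Atg3 (-0.35), Gabarapl2 (0.33) and Map1lc3b (0.28). Fnta, a subunit of the enzymes that attach prenyl groups, was higher by 0.82, and Icmt, which methylates prenylated proteins, was lower by 0.16.

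After IFNβ the same lists were compared between the lines, and the genes past the test again stood on both sides. Among relatives 9930111J21Rik2 (0.67) and Gvin1 (0.89) were higher and Gm12250 (-1.05) and Gbp8 (-0.27) lower in 3s cells. In the signalling lists Ifngr1 (0.74), Jak1 (0.39), Pias1 (0.45), Ptpn6 (0.60), Ptpn1 (0.29) and Ifnk (0.59) were higher, and Ifngr2 (-1.09), Ifnar2 (-0.56), Stat2 (-0.30), Socs1 (-0.24), Ifna4 (-0.47), Ifng (-0.66) and Ifnl3 (-0.22) lower. Of the 29 interferon-stimulated genes 8 were higher and 2 lower, with Samd9l (2.18), Ifit2 (1.55), Trim30a (0.49) and Psmb8 (-0.48) the smallest in adjusted p. Over all genes, 13.9% were higher and 13.0% lower in this comparison. Partners past the test were Casp1 (-6.40), Casp4 (-3.47), Aim2 (0.50), Gsdmd (0.89), Gabarapl1 (-1.84), Atg3 (-0.34), Map1lc3b (0.28), Atg16l1 (0.39), Fnta (0.67), Icmt (-0.20) and Rce1 (-0.28), among others. All 10 B cell markers passed, 6 higher and 4 lower, led by Igll1 (-6.20), Ms4a1 (2.82), Cd79b (0.80) and Pax5 (0.75), and Ly6c2 (-1.29) and Klrb1c (-0.44) were lower. The part of these B cell differences in the levels of the members was not tested. By their group means, Gm12250, Socs1, Ifng and Klrb1c read within the range of the background controls in both lines after IFNβ. Gbp8, Igll1, Casp1, Casp4 and Ly6c2 did so in 3s cells, and Ifit2 in 30s cells. The sizes of these differences are limited by background.

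**Figure D5:**
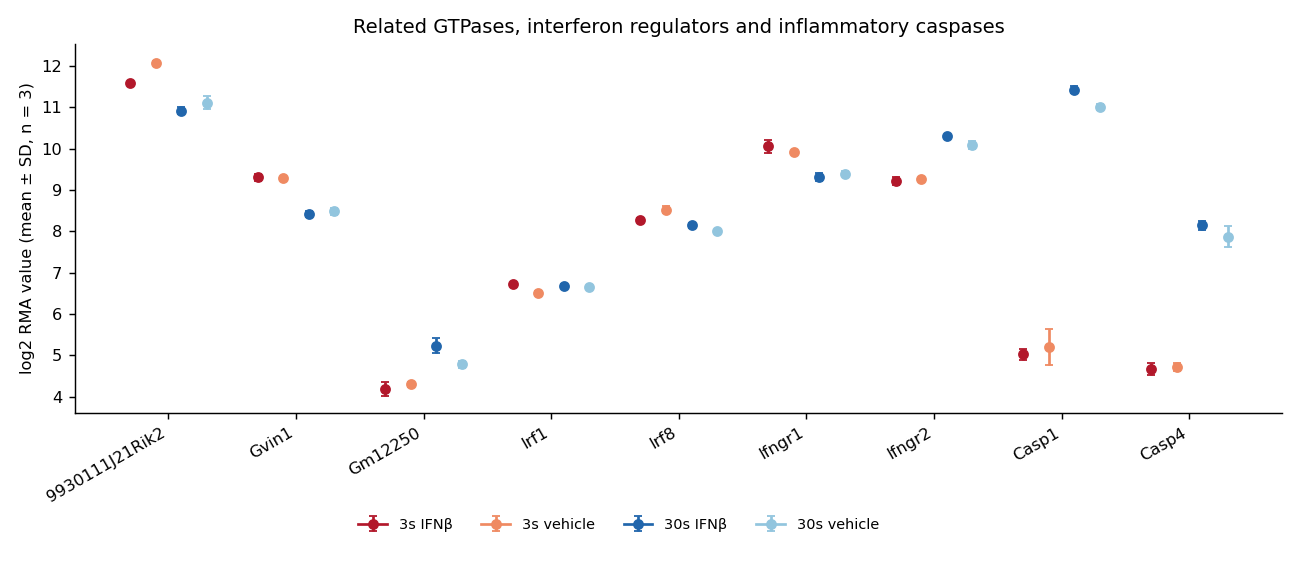
Log2 RMA value (vertical axis, mean ± SD, n = 3) of related GTPases, interferon regulators and inflammatory caspases in the 4 groups. Casp1 and Casp4 lie near 5 in both groups of 3s cells and far higher in 30s cells, while the IFNβ-treated and vehicle-treated means of a line differ by 0.49 or less for each gene shown.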

How the data were processed

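RNA of 12 cultures was hybridised to Affymetrix MTA 1.0 arrays. The authors deposited log2 values from RMA (background correction, quantile normalisation and probe set summary), and the submitters' processing notes name Affymetrix Expression Console 1.4. They were used as deposited. Of 72688 probe sets, 30638 carried 1 gene symbol and 2176 several, 330 symbols were updated to current names, and the brightest probe set of each gene left 30098 genes. Sequences, neighbours and chromosomes are from RefSeq for GRCm38.p6. The genome build behind the platform annotation was not stated.

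A single limma 3.58.1 model (R 4.3.3) with a mean for each of the 4 groups was fitted to the 12 arrays (8 residual and 3.15 prior degrees of freedom), two-sided, with Benjamini-Hochberg adjustment over all genes and calls at an adjusted p under 0.05. The methods of the study name a t-test, which was run as an alternative. The labels call the cultures biological replicates without saying how they were separated, so p-values measure the spread between these cultures, and 3 cultures per group limit the precision.

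All 10 members are named. Of the related lists (other GBPs and IRGs, very large GTPases and Mx dynamins, interferons, their receptors and kinases, STATs and IRFs, negative regulators, interferon-stimulated genes, ATG8 conjugation, inflammasome components, prenylation enzymes, and markers of B, myeloid, T and NK, stromal and erythroid cells) the genes past the test were named, at most 4 for each list and comparison by smallest adjusted p, and the 5 genes most alike to Gbp3 and to the members' mean z-score were named by Pearson's r over the 12 arrays. Members and lists were chosen with earlier results of these data known. The alternatives were 10 other settings and leaving out each of the 12 arrays in turn.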

Additional observations from a re-analysis of the deposited data

Results flagged for a closer look

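Of 135 genes measured in the family and all its related lists, 7 passed the test of the difference between the IFNβ effect in 3s cells and that in 30s cells, 5.19% against 1.02% of all genes. The lists were chosen with earlier results known, so nothing is read from that share. Gbp3 had a difference of -0.50 on the log2 scale, with an effect of -0.46 in 3s cells and 0.04 in 30s cells. Irf8, a transcription factor of interferon-responsive genes, had a difference of -0.38, with -0.25 in 3s cells and 0.13 in 30s cells. The interferon-stimulated genes Xaf1 and Tap1 had differences of -0.62 and -0.28, and Samd9l one of 0.80. Ptpn6, a phosphatase that restrains cytokine signalling, had a difference of 0.42. For Xaf1, Tap1, Samd9l and Ptpn6 the effect passed in 30s cells (0.43, 0.19, -0.85 and -0.37) and not in 3s cells (-0.19, -0.09, -0.05 and 0.05). When only the arrays of 30s cells were fitted, 0 of all genes passed there, so these calls in 30s cells were lost. Igll1, a B cell marker that read within the range of the background controls in 3s cells (4.50 after IFNβ and 5.11 with vehicle), had a difference of -1.53, with 0.92 in 30s cells. No explanation of these differences was tested.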

How the results depend on the processing

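No called member changed direction under any of the 10 other settings or with any of the 12 arrays left out. Of the members' values under these alternatives, 917 stayed on their side of the threshold, 49 lost a call and 9 gained one. In 3s cells the count of 2 members changed by IFNβ was 1 (Gbp3) when only the compared arrays were fitted, with the replicate number as a block, with an intensity trend and robust moderation, and when every probe set was tested. It was 0 with the methods' t-test after Benjamini-Hochberg adjustment, where 8 of all genes passed and Gbp3 had an adjusted p of 0.248, and 4 with that t-test unadjusted (2 higher and 2 lower). In 30s cells the count of 0 was 2 with the unadjusted t-test, and for the difference between lines the count of 1 was 5 (1 higher and 4 lower). After IFNβ the count of 6 between the lines was 3 with the adjusted t-test, where 5884 of all genes passed. With an array left out the counts were 1 to 2 in 3s cells, 0 to 0 in 30s cells, 1 to 1 for the difference, 5 to 6 between lines with vehicle and 3 to 6 after IFNβ. Why the fits differ was not tested.

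Over all genes, 307 passed in 3s cells, against 154 when only the compared arrays were fitted, 149 over every probe set, 2278 with the unadjusted t-test and 190 to 299 with an array left out. In 30s cells 346 passed, against 0, 106, 3562 and 97 to 354 under the same alternatives, 1 with the adjusted t-test and 741 without dim genes. For the difference 307 passed, against 178 with the adjusted t-test, 3267 with the unadjusted one, 461 without dim genes, 134 over every probe set and 184 to 241 with an array left out. Between lines with vehicle 7489 passed, against 4944 with the adjusted t-test and 6373 to 7435 with an array left out. Between lines after IFNβ 8096 passed, against 5884 with the adjusted t-test and 7157 to 8099 with an array left out. Leaving out dim genes removed 3 members. Deviations of same-numbered cultures of different groups from their group means had an r of -0.17 to 0.20 with a median of 0.02 (18 pairs). Different-numbered pairs were not compared, so these values cannot decide whether the numbers pair the cultures. With the replicate number as a block the counts were 1 in 3s cells, 0 in 30s cells, 1 for the difference, 5 between lines with vehicle and 5 after IFNβ. The counts over all genes were then 231, 242, 242, 7260 and 7842 in the same order. Gbp7, Iigp1, the shared probe set of Gbp5 and, in 3s cells, Gbp2 were read within the range of the background controls, which limits what could be seen of them.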
